A study of Mus musculus with 30 samples.

Results

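Cd14, Tlr2, Tlr3, Tlr4, Myd88, Nfkbia, Nfkbiz, Tnfaip3, Bcl3 and Relb are genes of Toll-like receptor signalling and of the transcription factor NF-kappaB that it switches on. They make up 10 of the 18193 genes measured on the arrays and were chosen by role, as the lipopolysaccharide co-receptor, the receptors, the adaptor and the NF-kappaB feedback genes. Earlier results of these data were known when they were chosen, so their counts beside those of all genes are a description. Their RNA was measured in astrocytes sorted from mouse brain after a stroke or after an injection of bacterial lipopolysaccharide (LPS). Each value is the log2 of an array intensity from 1 probe set, a group of probes against the same transcript. For each gene it is the probe set that carries a single gene symbol and has the highest mean over all 30 arrays.

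The stroke groups had transient middle cerebral artery occlusion (MCAO), which blocks the artery for 1 hour before blood flow returns, and were set against sham surgery without the occlusion. They held 5 MCAO and 4 sham arrays at 1 day, 3 and 3 arrays at 3 days, and 3 and 3 arrays at 7 days. The inflammation groups held 5 arrays 1 day after 5 mg/kg LPS from E. coli O55:B55 into the peritoneum, and 4 arrays 1 day after endotoxin-free saline. All mice were young adult males of the line Tg(Aldh1l1-eGFP) OFC789Gsat on a Swiss Webster background, in which the Aldh1l1 promoter drives green fluorescent protein in astrocytes. The cells came from papain-digested brain by sorting for that fluorescence, so any other cell that kept the signal or stuck to an astrocyte would be in the sample. In such pooled RNA, fewer cells of a type and less RNA per cell cannot be told apart. The arrays are labelled as biological replicates, but whether each came from its own mouse is not given, and p-values measure only the spread between these samples.

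The labelled cell type was checked against marker lists. All 10 of 10 astrocyte markers averaged above the log2 floor of 5 in every group, and their summed intensity was 129501 to 147343 on the 1-day MCAO arrays, against 146815 to 154269 on the 1-day sham arrays. At 1 day after MCAO Gfap was called higher (log2 fold 1.69 ± 0.40 SE, adjusted p = 0.00486). Gjb6 (-0.63 ± 0.16 SE, adjusted p = 0.00782) and Slc1a3 (-0.52 ± 0.15 SE, adjusted p = 0.0165) were called lower. Gfap was also called higher after LPS (1.87 ± 0.40 SE, adjusted p = 0.00747). Of 14 microglia and macrophage markers, 13 had a probe set. Aif1 and Itgam averaged under the floor in every group, and Ptprc in every group except 1-day MCAO. The rest of the 13 averaged at or above the floor in every group. The summed intensity of all 13 was 1086 to 1870 at 1 day after MCAO, against 979 to 1757 after sham, and it was 805 to 1085 after LPS, against 677 to 1065 after saline. Cd68, a lysosomal marker of phagocytes, was the only one of the 12 kept for testing that passed, and only at 1 day after MCAO (log2 fold 1.98 ± 0.26 SE, adjusted p = 9.14e-06). Neutrophil and monocyte markers, 10 measured of 12, summed to 611 to 665 at 1 day after MCAO, against 530 to 580 after sham, without overlap. Of these, Il1r2 (0.87 ± 0.17 SE, adjusted p = 0.000708) and S100a8 (0.87 ± 0.29 SE, adjusted p = 0.0469) were called higher, S100a8 from a sham mean under the floor. The endothelial Vwf (1.57 ± 0.51 SE, adjusted p = 0.0395) and the smooth muscle gene Tagln (1.53 ± 0.39 SE, adjusted p = 0.00891) were also called higher then. Tagln was called higher at 3 days after MCAO too (2.46 ± 0.48 SE, adjusted p = 0.0147). After LPS the pericyte marker Rgs5 was called higher (1.98 ± 0.41 SE, adjusted p = 0.00602). Oligodendrocyte markers, 9 measured of 10, had larger sums than the microglia list. They summed to 13480 to 33547 at 1 day after MCAO, against 18003 to 43868 after sham. Aspa (-1.17 ± 0.31 SE, adjusted p = 0.0105) and Cnp (-0.69 ± 0.20 SE, adjusted p = 0.0195) were called lower then. At 3 days after MCAO the median log2 fold of this list was 1.38, with 0 called. The part of these other cells in the results below was not tested. The arrays also differed in the top of their scale: on 16 of them the 99.9th percentile of log2 intensity was at least 14, and on the other 14 it was lower. Every 1-day surgery array was in the upper set and every 7-day array in the lower one, while the other 4 groups held arrays of both. LPS array 5 stood apart, with a median intensity of 94, against 68 to 73 on the other 29 arrays.

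Toll-like receptors recognise microbial molecules and molecules released by damaged cells. CD14 is a surface co-receptor that hands LPS to TLR4. TLR2 binds bacterial lipoproteins, and TLR3 binds double-stranded RNA. Most of these receptors, and the interleukin-1 receptor, signal through the adaptor MyD88, whereas TLR3 uses another adaptor. The signal frees NF-kappaB from its inhibitors, and NF-kappaB then switches on cytokines, chemokines and its own brakes. Among these brakes are IkappaB-alpha (Nfkbia), which holds NF-kappaB in the cytoplasm, and A20 (Tnfaip3), which edits ubiquitin chains upstream. IkappaB-zeta (Nfkbiz) and BCL-3 are related proteins that work in the nucleus and can help or hinder transcription. RelB is the NF-kappaB subunit of the slower non-canonical branch. In brain, microglia are the best known carriers of TLR4 and CD14, and astrocytes are known to respond to interleukin-1 and to carry TLR3.

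Promoter windows from RefSeq, 250 bases before to 50 bases after the transcript start on GRCm38.p6, were found for 6 of the 10 genes. They are shown because these genes are textbook members of a pathway that feeds back on itself through NF-kappaB, and the windows show which carry the letters of its site. Capitals mark matches to the NF-kappaB consensus on either strand. The 5 windows with a match are given 5′ to 3′ on the strand of the gene, which for each is the minus strand: Tlr2 at chr3:83841559-83841858, Tlr3 at chr8:45410331-45410630, Nfkbia at chr12:55492598-55492897, Tnfaip3 at chr10:19015361-19015660 and Bcl3 at chr7:19822706-19823005.
Tlr2: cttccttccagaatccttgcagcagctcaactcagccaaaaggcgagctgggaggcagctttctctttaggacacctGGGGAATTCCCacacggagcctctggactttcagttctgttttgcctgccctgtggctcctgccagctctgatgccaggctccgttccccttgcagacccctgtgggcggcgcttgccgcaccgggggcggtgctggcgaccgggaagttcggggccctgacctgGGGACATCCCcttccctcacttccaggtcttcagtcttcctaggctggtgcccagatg
Tlr3: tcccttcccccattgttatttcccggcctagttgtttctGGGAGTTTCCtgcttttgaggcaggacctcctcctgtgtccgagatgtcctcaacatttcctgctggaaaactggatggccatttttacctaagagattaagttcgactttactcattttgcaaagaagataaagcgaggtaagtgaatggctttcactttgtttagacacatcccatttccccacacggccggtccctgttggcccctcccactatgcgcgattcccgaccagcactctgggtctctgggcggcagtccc
Nfkbia: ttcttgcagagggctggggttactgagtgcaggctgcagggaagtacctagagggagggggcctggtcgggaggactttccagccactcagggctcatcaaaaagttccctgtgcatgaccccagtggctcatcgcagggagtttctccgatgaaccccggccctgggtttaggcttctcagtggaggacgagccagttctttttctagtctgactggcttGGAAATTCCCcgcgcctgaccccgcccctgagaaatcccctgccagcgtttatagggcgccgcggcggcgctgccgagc
Tnfaip3: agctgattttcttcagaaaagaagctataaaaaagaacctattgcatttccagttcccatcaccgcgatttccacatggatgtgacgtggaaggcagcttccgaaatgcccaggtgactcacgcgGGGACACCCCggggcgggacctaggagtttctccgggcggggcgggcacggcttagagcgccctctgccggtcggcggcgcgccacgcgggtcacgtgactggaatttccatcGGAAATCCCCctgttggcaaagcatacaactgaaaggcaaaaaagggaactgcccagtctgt
Bcl3: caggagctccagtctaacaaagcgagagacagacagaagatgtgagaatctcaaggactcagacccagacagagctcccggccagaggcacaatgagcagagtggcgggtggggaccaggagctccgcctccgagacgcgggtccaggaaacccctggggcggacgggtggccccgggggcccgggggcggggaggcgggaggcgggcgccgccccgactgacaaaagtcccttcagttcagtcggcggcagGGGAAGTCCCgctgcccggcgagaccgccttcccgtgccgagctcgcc
The Nfkbia match began 29 bases before the start (position -29), and the Tnfaip3 matches began at positions -125 and -12. Tlr2 held overlapping matches at positions -173 and -172 and another at -8. The Tlr3 match lay at position -211, and the Bcl3 match at position 3, after the start. Over all 32851 windows of the same length, 4.51% held the consensus. A second form, GGGNNTTTCC on either strand, overlapped the consensus matches of Tlr3, Nfkbia and Tnfaip3 (the last at -12) and was found in 1.63% of all windows. The second Tnfaip3 window and the Myd88 window held neither form. Cd14, Tlr4, Nfkbiz and Relb are not shown. A match describes the letters in these windows and says nothing of binding.

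At 1 day after MCAO the genes moved mostly up. Compared with sham, Cd14, Tlr4, Myd88, Bcl3 and Relb rose and Tlr3 fell, while Tlr2, Nfkbia, Nfkbiz and Tnfaip3 did not pass the test. That made 6 of 10 genes past an adjusted p of 0.05, where 12.7% of all 15726 genes tested passed, with 5 rises and 1 fall, where 6.49% of all genes rose and 6.17% fell. The arrays of the groups did not overlap for 7 genes that were higher after MCAO and 1 that was lower, against 12.1% and 15.2% of all genes. The median log2 fold of the 10 genes was 1.55, and that of all genes was -0.05.

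At 1 day after LPS, Cd14, Tlr2, Myd88, Bcl3 and Relb rose compared with saline and none fell. These 5 of 10 genes stood against 3.11% of all genes called, 2.37% as higher and 0.744% as lower. The same 5 had arrays that did not overlap, against 1.88% of all genes that were higher and 0.865% that were lower in this way. The median log2 fold was 0.98, and 0.07 over all genes.

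At 3 days after MCAO only Tlr3 passed the test, as lower, where 0.674% of all genes passed, 0.61% as higher and 0.0636% as lower. Arrays did not overlap for 4 genes that were higher and 1 that was lower after MCAO, against 5.74% and 6.94% of all genes. At 7 days 0 of 10 genes passed in limma, where 0.0254% of all genes did, and 5 of the 10 had an unadjusted p under 0.05, as did 412 of the 15726 genes. At that time 9 genes were higher on every MCAO array than on every sham array and Tlr3 was lower on every one, against 9.65% and 6.68% of all genes. The median log2 fold was 0.86 at 3 days and 0.90 at 7 days, and 0.01 and -0.01 over all genes. These later groups hold 3 arrays each, and the count at 3 days depended on single arrays: it was 0 without MCAO array 1 or 2 or sham array 1 or 2, 1 without sham array 3 and 3 without MCAO array 3. The gene called without sham array 3 was Bcl3, as higher, and Tlr3 was not called there.

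**Figure D1:**
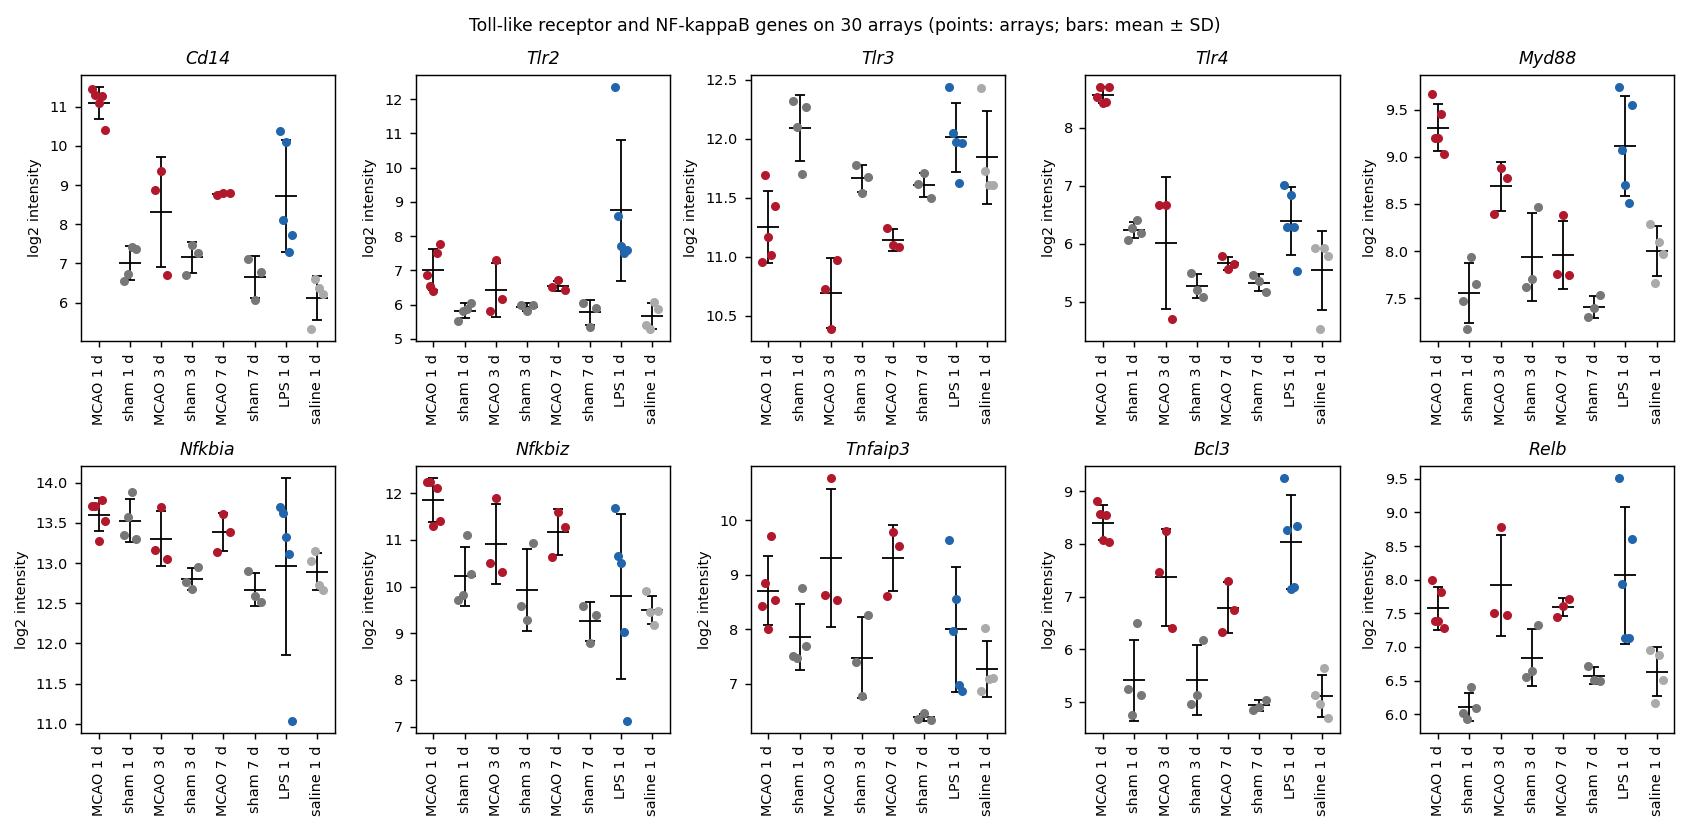
Log2 intensity of each gene (vertical axes, scaled per gene) on all 30 arrays by group; points are arrays, and bars are the mean and SD. Cd14 lies at 10.41 or more on every 1-day MCAO array and at or under 7.41 on every 1-day sham array, and 1 LPS array reaches 12.36 for Tlr2.

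**Figure D2:**
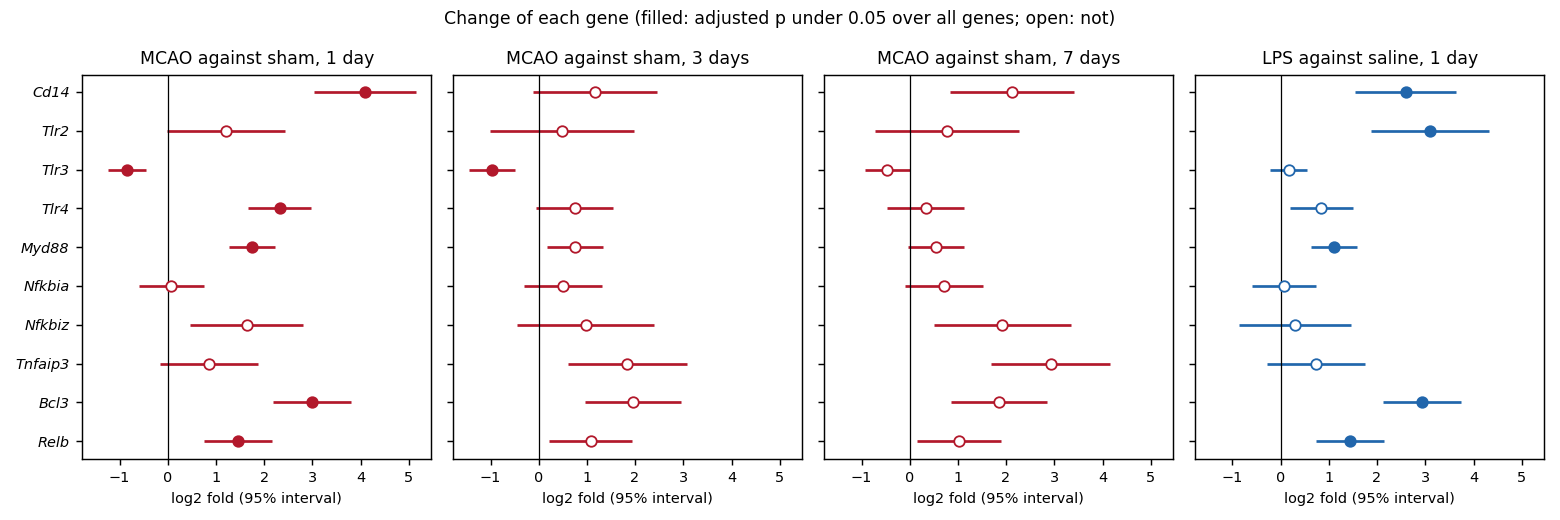
Log2 fold of each gene in the 4 comparisons (horizontal axis, MCAO over sham or LPS over saline), with 95% intervals from the fit over all 8 groups; filled points have an adjusted p under 0.05 over all genes. Filled points number 6 at 1 day after MCAO, 1 at 3 days, 0 at 7 days and 5 after LPS.

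Cd14 had the largest log2 fold of the 10 genes at 1 day after MCAO. Its log2 intensity was 11.44, 11.30, 11.10, 11.26 and 10.41 on the MCAO arrays, against 6.55, 6.73, 7.41 and 7.37 on the sham arrays. Every MCAO array lay far above every sham array, a gap of several times the spread within either group. The means were 11.10 ± 0.41 (SD, n = 5) after MCAO and 7.01 ± 0.44 (SD, n = 4) after sham. The log2 fold was 4.09 ± 0.51 SE, a 17.0-fold rise (adjusted p = 4.57e-06). After LPS the arrays read 10.39, 8.12, 10.09, 7.29 and 7.73, against 5.32, 6.60, 6.38 and 6.23 after saline. Each LPS array was above each saline array, but the LPS arrays themselves spread over several log2 units, with arrays 1 and 3 high and arrays 4 and 5 low. The rise was 6.03-fold (log2 2.59 ± 0.51 SE, adjusted p = 0.00376). The log2 fold was 3.57 (adjusted p = 0.00568) on the arrays of the upper set alone, 3 against 2, and 1.20 (adjusted p = 0.136) on those of the lower set alone, 2 against 2.

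At 3 days Cd14 was at 8.88, 9.35 and 6.71 after MCAO, against 6.70, 7.48 and 7.28 after sham. MCAO array 3 lay within the sham range, and the log2 fold of 1.16 ± 0.63 SE did not pass (adjusted p = 0.616). Without MCAO array 3 it was 1.96 (adjusted p = 0.0738). MCAO array 3 and sham array 3 are the only 3-day arrays of the upper set. In the lower set the 3-day log2 fold was 2.02 (adjusted p = 0.00417). In the upper set, with 1 array a group, it was -0.56. At 7 days the MCAO arrays read 8.75, 8.79 and 8.80, against 7.11, 6.07 and 6.79 on the sham arrays. The MCAO arrays were nearly equal and above each sham array, with a log2 fold of 2.13 ± 0.63 SE that did not pass over all genes (adjusted p = 0.495). With the 7-day groups fitted on their own the same fold had an adjusted p of 0.00879.

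Tlr4, the receptor that CD14 serves, was high on all 5 MCAO arrays of 1 day, at 8.53, 8.70, 8.42, 8.43 and 8.69, against 6.07, 6.27, 6.41 and 6.19 on the sham arrays. Both groups were tight and well apart. The rise was 5.00-fold (log2 2.32 ± 0.32 SE, adjusted p = 1.51e-05). After LPS Tlr4 read 7.01, 6.29, 6.83, 6.29 and 5.52, against 5.93, 4.52, 5.93 and 5.78 after saline. LPS array 5 fell among the saline arrays, saline array 2 was under the floor, and the log2 fold of 0.85 ± 0.32 SE did not pass (adjusted p = 0.165). At 3 days the arrays read 6.67, 6.66 and 4.70 after MCAO, against 5.49, 5.21 and 5.09 after sham. MCAO array 3 was the lowest of the 6 and under the floor. The log2 fold was 0.75 ± 0.39 SE (adjusted p = 0.586), and without that array it was 1.40 (adjusted p = 0.0162). In the lower set of arrays it was 1.31 (adjusted p = 0.00740). In the upper set, which holds array 3 of each group, it was -0.39. At 7 days the log2 fold was 0.33 ± 0.39 SE (adjusted p = 1), with means of 5.66 ± 0.11 after MCAO and 5.33 ± 0.15 after sham (SD, n = 3 each).

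Tlr2, the receptor for bacterial lipoproteins, rose after LPS. Its log2 intensity was 12.36, 8.60, 7.71, 7.51 and 7.60 on the LPS arrays, against 5.39, 5.29, 6.09 and 5.86 on the saline arrays. LPS array 1 stood far above the other 4, and those 4 were each still above every saline array. The rise was 8.57-fold (log2 3.10 ± 0.60 SE, adjusted p = 0.00277), and without LPS array 1 the log2 fold was 2.20 (adjusted p = 9.47e-05). Within the upper set of arrays it was 4.22 (adjusted p = 0.0341) and within the lower set 1.58 (adjusted p = 0.0951). At 1 day after MCAO the arrays read 6.86, 6.54, 6.41, 7.52 and 7.75, against 5.52, 5.81, 5.88 and 6.04 after sham. The groups did not overlap, and the log2 fold was 1.20 ± 0.60 SE (adjusted p = 0.228). The wide spread of Tlr2 after LPS enters this SE, since the fit shares 1 variance over the 8 groups. With the 4 pairs of arrays that carry the same number in the descriptions as a block, the log2 fold was 1.24 (adjusted p = 0.00649). That fit also takes the LPS and saline arrays out of the shared variance. With the 1-day MCAO and sham groups fitted on their own, without pairs, the log2 fold was 1.20 (adjusted p = 0.00694). At 3 days the MCAO arrays read 5.81, 7.30 and 6.17, against 6.0, 5.81 and 6.0 after sham. MCAO array 2 was high and array 1 lay among the sham arrays. At 7 days the MCAO arrays read 6.51, 6.71 and 6.43, against 6.04, 5.36 and 5.91 after sham. Neither passed (log2 folds 0.49 ± 0.73 SE and 0.78 ± 0.73 SE, adjusted p = 0.992 and 1).

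Tlr3, the receptor for double-stranded RNA, was the gene that went down after MCAO. At 1 day it read 10.96, 11.69, 11.17, 11.02 and 11.43 on the MCAO arrays, against 12.32, 12.10, 11.70 and 12.26 on the sham arrays. The highest MCAO array lay just under the lowest sham array. Tlr3 was 1.79-fold lower (log2 -0.84 ± 0.19 SE, adjusted p = 0.00296). At 3 days it read 10.73, 10.39 and 10.97 after MCAO, against 11.77, 11.54 and 11.68 after sham. Here the groups lay clearly apart. It was 1.96-fold lower (log2 -0.97 ± 0.23 SE, adjusted p = 0.0427), and leaving out any of the 6 arrays other than MCAO array 3 raised the adjusted p to 0.0531 to 0.362. In the lower set of arrays the 3-day log2 fold was -1.10 (adjusted p = 0.00705). In the upper set, which holds array 3 of each group, it was -0.71. At 7 days the arrays read 11.25, 11.10 and 11.08 after MCAO, against 11.61, 11.71 and 11.50 after sham. They did not overlap, but the log2 fold of -0.46 ± 0.23 SE did not pass (adjusted p = 1). After LPS Tlr3 read 12.44, 12.05, 11.98, 11.62 and 11.96, against 12.43, 11.73, 11.61 and 11.61 after saline. These ranges overlapped almost wholly, with a log2 fold of 0.17 ± 0.19 SE (95% interval -0.22 to 0.56, adjusted p = 0.713). The probe set used is of a kind that can share probes with other transcripts. The other Tlr3 probe set was read from a fit without probe sets of that kind. It gave -0.94 at 1 day (adjusted p = 0.447) and -1.16 at 3 days after MCAO (adjusted p = 0.780), so without the shared one neither call stood. After LPS it gave -0.55 (adjusted p = 0.720).

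Myd88, the adaptor of TLR2, TLR4 and the interleukin-1 receptor, rose at 1 day in both models. After MCAO it read 9.67, 9.20, 9.20, 9.45 and 9.03, against 7.47, 7.17, 7.94 and 7.65 after sham. All MCAO arrays lay above 9 and all sham arrays under 8. The rise was 3.37-fold (log2 1.75 ± 0.23 SE, adjusted p = 9.29e-06). After LPS it read 9.74, 9.07, 8.70, 8.51 and 9.55, against 8.29, 7.66, 8.09 and 7.97 after saline. The groups did not overlap, though LPS array 4 came near the highest saline array. The rise was 2.16-fold (log2 1.11 ± 0.23 SE, adjusted p = 0.00602), and it was 1.20 on the log2 scale within the upper set (adjusted p = 0.0626) and 1.00 within the lower set (adjusted p = 0.158). At 3 days the means were 8.69 ± 0.26 after MCAO and 7.93 ± 0.47 after sham (SD, n = 3 each), and at 7 days 7.96 ± 0.36 after MCAO and 7.41 ± 0.11 after sham. Neither log2 fold, 0.75 ± 0.28 SE at 3 days and 0.55 ± 0.28 SE at 7 days, passed (adjusted p = 0.289 and 1).

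Nfkbia, the cytoplasmic brake, did not pass the test in any comparison. At 1 day it read 13.71, 13.71, 13.28, 13.79 and 13.52 after MCAO, against 13.35, 13.58, 13.88 and 13.29 after sham. The ranges overlapped almost wholly, with a log2 fold of 0.08 ± 0.33 SE (95% interval -0.60 to 0.75, adjusted p = 0.962). After LPS it read 13.70, 13.63, 13.32, 13.11 and 11.04, against 13.03, 13.15, 12.73 and 12.66 after saline. LPS array 5 lay far under every other array, and the log2 fold over all 5 LPS arrays was 0.07 ± 0.33 SE (95% interval -0.61 to 0.74, adjusted p = 0.943). Without that array it was 0.55 (adjusted p = 0.0753). The later MCAO arrays were each above each sham array of their day. They read 13.16, 13.69 and 13.05 at 3 days, against 12.76, 12.68 and 12.95 after sham, and 13.14, 13.61 and 13.39 at 7 days, against 12.90, 12.59 and 12.52 after sham. The log2 folds of 0.50 ± 0.40 SE and 0.71 ± 0.40 SE did not pass (adjusted p = 0.869 and 1). All 5 Nfkbia probe sets had a positive log2 fold in every comparison, from 0.08 to 0.40 at 1 day after MCAO and from 0.69 to 1.87 at 7 days.

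Nfkbiz, the nuclear inhibitor-like coactivator, was higher on every MCAO array than on every sham array at 1 day. It read 12.24, 12.23, 11.30, 12.11 and 11.39 after MCAO, against 9.70, 9.81, 11.09 and 10.27 after sham. Sham array 3 was the highest sham array and came close to the lowest MCAO array. The log2 fold of 1.64 ± 0.57 SE just missed the threshold (adjusted p = 0.0585), and it was 1.93 without sham array 3 (adjusted p = 0.0390). With the description numbers as a block it was 1.54 (adjusted p = 0.0242), and with the 2 groups fitted on their own, without pairs, 1.64 (adjusted p = 0.00287). At 3 days Nfkbiz read 10.51, 11.89 and 10.31 after MCAO, against 9.59, 9.27 and 10.92 after sham. The ranges overlapped, with array 2 high among the MCAO arrays and array 3 high among the sham arrays (log2 fold 0.97 ± 0.69 SE, adjusted p = 0.828). At 7 days it read 10.64, 11.60 and 11.27 after MCAO, against 9.58, 8.78 and 9.40 after sham. Those groups stood apart, with a log2 fold of 1.92 ± 0.69 SE (adjusted p = 1, and 0.0201 with the 7-day groups fitted on their own). After LPS the arrays ran from 7.13 on array 5 to 11.68 on array 1, against 9.17 to 9.90 after saline, and the log2 fold was 0.29 ± 0.57 SE (adjusted p = 0.842), or 0.96 without LPS array 5 (adjusted p = 0.259).

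Tnfaip3, which encodes the ubiquitin-editing brake A20, showed its largest difference late. At 7 days it read 8.61, 9.78 and 9.53 after MCAO, against 6.36, 6.46 and 6.34 after sham. Every MCAO array was more than 2 log2 units above every sham array. The means were 9.31 ± 0.61 after MCAO and 6.39 ± 0.06 after sham (SD, n = 3 each). At 1 day they were 8.70 ± 0.64 after MCAO (SD, n = 5) and 7.85 ± 0.60 after sham (SD, n = 4). The sham mean was thus lower at 7 days and the MCAO mean higher. All 1-day surgery arrays are in the upper set and all 7-day arrays in the lower one, so day and set cannot be told apart here. The 7-day log2 fold of 2.92 ± 0.60 SE, or 7.58-fold, missed the threshold over all genes (adjusted p = 0.0597). It passed with the 7-day groups fitted on their own (adjusted p = 0.00507) and with robust trended variances (adjusted p = 0.0449). At 3 days the arrays read 8.62, 10.77 and 8.54 after MCAO, against 7.40, 6.77 and 8.26 after sham. MCAO array 2, the highest of its group for 8 of the 10 genes, stood above the rest. The groups did not overlap (log2 fold 1.83 ± 0.60 SE, adjusted p = 0.189), as judged over all genes. Without MCAO array 2 it was 1.10 (adjusted p = 0.943). In the lower set of arrays the 3-day log2 fold was 2.61 (adjusted p = 0.0137). In the upper set, which holds array 3 of each group, it was 0.28.

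At 1 day Tnfaip3 read 8.43, 8.85, 8.01, 9.71 and 8.53 after MCAO, against 7.52, 7.47, 8.75 and 7.69 after sham. Sham array 3 lay inside the MCAO range, and the log2 fold of 0.85 ± 0.49 SE did not pass (adjusted p = 0.333). MCAO array 4 and sham array 3, which were the highest of their groups, carry the same number in the descriptions. They also had the highest summed intensity of the 11 endothelial markers measured of 12, at 9687 on the MCAO array and 9632 on the sham array, where the other arrays had 1663 to 4129 after MCAO and 2788 to 3442 after sham. The 8 neuron markers summed to 7961 on the MCAO array and 10778 on the sham array, against 2250 to 2974 on the other MCAO arrays and 2607 to 3207 on the other sham arrays. Within the MCAO and sham groups of 1 day, Emcn after sham was the only endothelial marker whose mean was under the floor. Sham array 3 was the highest of its group for 8 of the 10 genes, and MCAO array 4 for 2. The part of endothelial cells and neurons in the levels of Tnfaip3 and of the other genes was not tested. Within the 4 pairs of arrays that share a number, Tnfaip3 was higher after MCAO in 4 of 4, by 0.54 to 1.33. After LPS it read 9.63, 7.97, 8.55, 6.98 and 6.86, against 6.87, 8.02, 7.08 and 7.11 after saline, which overlapped (log2 fold 0.73 ± 0.49 SE, adjusted p = 0.499).

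**Figure D3:**
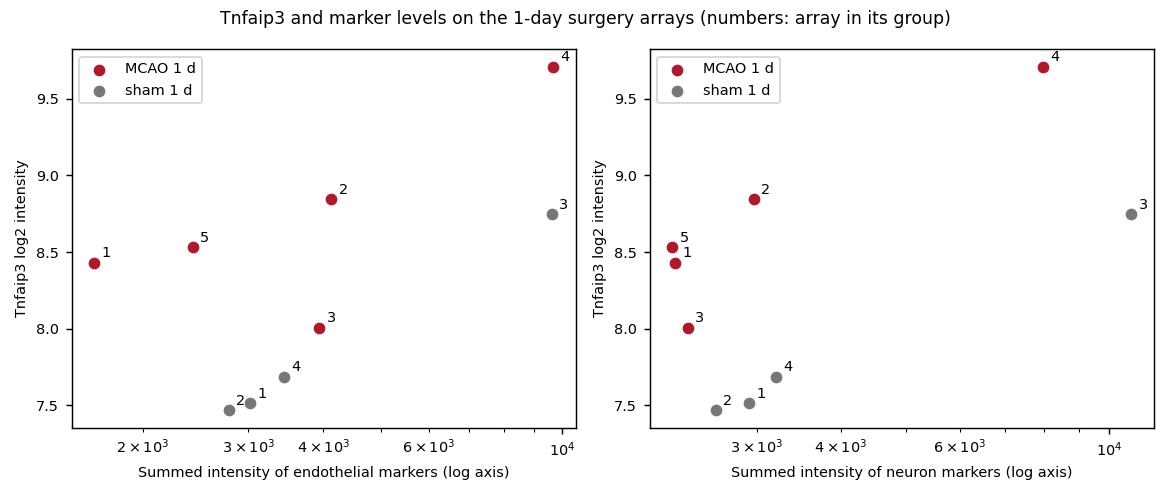
Tnfaip3 log2 intensity (vertical axes) against the summed intensity of endothelial markers (left) and of neuron markers (right) on log axes, for the 5 MCAO and 4 sham arrays of 1 day, numbered within their group. MCAO array 4 and sham array 3 lie at the right in both panels and have the highest Tnfaip3 of their groups, 9.71 and 8.75.

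Bcl3, a nuclear partner of the p50 and p52 subunits, rose at 1 day after both MCAO and LPS. It read 8.81, 8.56, 8.07, 8.54 and 8.03 after MCAO, against 5.25, 4.75, 6.51 and 5.13 after sham. The control values lay near the floor except on sham array 3, and no MCAO array came near them. The rise was 7.96-fold (log2 2.99 ± 0.40 SE, adjusted p = 9.14e-06). After LPS it read 9.25, 8.27, 7.14, 7.18 and 8.34, against 5.13, 4.95, 5.64 and 4.70 after saline. Each LPS array was well above each saline array, and the rise was 7.62-fold (log2 2.93 ± 0.40 SE, adjusted p = 4.10e-05). With 2 of the 4 saline arrays under the floor, this fold is best read as a lower bound. Bcl3 passed in each set of arrays, with a log2 fold of 3.18 in the upper (adjusted p = 0.00801) and 2.59 in the lower (adjusted p = 0.0192). At 3 days it read 7.46, 8.24 and 6.41 after MCAO, against 4.95, 5.13 and 6.17 after sham. The groups did not overlap, with MCAO array 3 low and sham array 3 high. The log2 fold of 1.95 ± 0.48 SE just missed (adjusted p = 0.0561), and it passed without MCAO array 3 (2.43, adjusted p = 0.00613) or without sham array 3 (2.33, adjusted p = 0.0152). In the lower set of arrays the 3-day log2 fold was 2.81 (adjusted p = 0.00236). In the upper set, which holds array 3 of each group, it was 0.24. At 7 days it read 6.32, 7.29 and 6.75 after MCAO, against 4.86, 4.91 and 5.04 after sham, a clear gap, with a fitted log2 fold of 1.85 ± 0.48 SE (adjusted p = 0.286). The sham mean of 4.94 is under the floor, and against the floor of 5 Bcl3 was at least 3.46-fold higher.

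Relb, the subunit of the non-canonical branch, also rose at 1 day in both models. It read 8.0, 7.38, 7.38, 7.82 and 7.28 after MCAO, against 6.02, 5.93, 6.41 and 6.09 after sham. The groups were tight and did not overlap, and the rise was 2.75-fold (log2 1.46 ± 0.35 SE, adjusted p = 0.00458). After LPS it read 9.51, 7.94, 7.14, 7.13 and 8.60, against 6.95, 6.17, 6.88 and 6.51 after saline. LPS arrays 3 and 4 lay only just above the highest saline array. The rise was 2.70-fold (log2 1.43 ± 0.35 SE, adjusted p = 0.0185). It did not pass without LPS array 1 (log2 fold 1.07, adjusted p = 0.0564), saline array 2 (1.28, adjusted p = 0.0763) or saline array 4 (1.39, adjusted p = 0.0669), or within the upper (1.63, adjusted p = 0.115) or lower set of arrays (1.17, adjusted p = 0.169). At 3 days the means were 7.92 ± 0.75 after MCAO and 6.84 ± 0.42 after sham, and at 7 days 7.59 ± 0.13 after MCAO and 6.57 ± 0.12 after sham (SD, n = 3 each). In each case the arrays did not overlap, and the log2 folds of 1.08 ± 0.42 SE and 1.02 ± 0.42 SE did not pass (adjusted p = 0.325 and 1).

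With the LPS and saline arrays fitted on their own, only Bcl3 passed (adjusted p = 0.0111), and Cd14, Tlr2, Myd88 and Relb had adjusted p-values of 0.156, 0.272, 0.266 and 0.441. LPS array 1 was the highest of its group for 10 of the 10 genes. LPS array 5 had a summed intensity of 72899 for astrocyte markers, against 107793 to 150405 on the other LPS arrays, and of 1152 for the 10 neutrophil and monocyte markers measured of 12, against 504 to 797. None of those 10 markers averaged under the floor after LPS, while S100a8 and Csf3r did after saline. Their part in the LPS results was not tested.

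No gene of the 10 differed beyond the threshold between the MCAO effect and the LPS effect at 1 day (limma, 0 of 10 called, where 1.39% of all genes were). An unadjusted p under 0.05 was reached by 4 of them and by 2010 of all 15726 genes. The difference was 1.5 ± 0.73 SE for Cd14 (adjusted p = 0.389) and 1.48 ± 0.45 SE for Tlr4 (adjusted p = 0.103), both larger after MCAO. It was -1.90 ± 0.84 SE for Tlr2 (adjusted p = 0.322), larger after LPS. Tlr3 came nearest to the threshold, at -1.01 ± 0.27 SE (adjusted p = 0.0547), with a log2 fold of -0.84 after MCAO and 0.17 after LPS. The other Tlr3 probe set gave -0.94 after MCAO and -0.55 after LPS, so the opposite signs come from the shared probe set alone. For Bcl3 the difference was 0.06, with a 95% interval of -1.09 to 1.22, and for Relb 0.03, with an interval of -0.98 to 1.03.

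The MCAO effects of the 3 days were also set against each other. At 3 days against 1 day 0 of 10 genes passed, where 0.00636% of all genes did, and 3 had an unadjusted p under 0.05, as did 942 of all 15726. At 7 days against 1 day 0 of 10 passed, where 0.356% of all genes did, and 4 had an unadjusted p under 0.05, as did 1353 of all 15726. The Cd14 effect was lower by 2.93 ± 0.81 SE at 3 days and by 1.96 ± 0.81 SE at 7 days than at 1 day on the log2 scale (adjusted p = 0.286 and 0.432). The Tlr4 effect differed by -1.58 ± 0.51 SE at 3 days and by -1.99 ± 0.51 SE at 7 days (adjusted p = 0.488 and 0.0959). For Tnfaip3 the difference ran the other way, 2.07 ± 0.78 SE at 7 days against 1 day (adjusted p = 0.347). Between 1 and 7 days, day and set of arrays cannot be told apart in these differences.

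Some genes have other probe sets, and these give a second reading of the same RNA. For Tlr4 at 1 day after MCAO the other 3 gave log2 folds of 1.34 (adjusted p = 0.00162), 0.52 (adjusted p = 0.00448) and 0.02 (adjusted p = 0.995), of which the last 2 come from probe sets whose means of 4.2 and 3.9 lie under the floor. The mean of the Tlr4 probe sets gave 2.07-fold in place of 5.00-fold. For Nfkbiz at 1 day the other probe sets gave 1.49 (adjusted p = 0.0381) and 0.95 (adjusted p = 0.132), so that all 3 pointed up. The other Tnfaip3 probe set, with a mean near the floor at 5.2, gave -0.08 at 1 day, -0.14 at 3 days and 0.25 at 7 days after MCAO, which does not repeat the differences of the one used. Cd14, Tlr2, Myd88, Bcl3 and Relb have only 1 probe set with a single symbol.

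**Figure D4:**
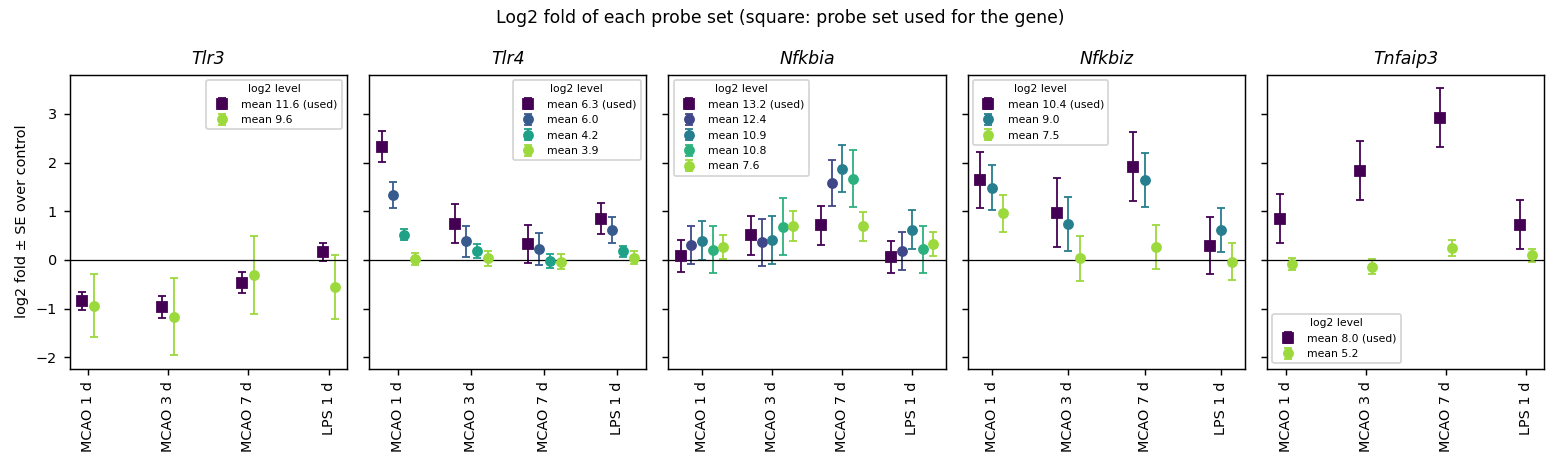
Log2 fold with its SE of each probe set (vertical axis, MCAO over sham or LPS over saline) in the 4 comparisons for the 5 genes that have more than 1; squares are the probe sets used, and the legends give mean log2 levels. The Nfkbia folds reach 0.69 to 1.87 at 7 days after MCAO, and the Tnfaip3 folds come from 1 probe set, since the other stays near 0.

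Over the 8 groups the order of mean levels differed between the genes. Cd14, Tlr4, Myd88, Nfkbia, Nfkbiz and Bcl3 were highest at 1 day after MCAO. Tlr2 and Relb were highest after LPS, Tnfaip3 at 3 days after MCAO, and Tlr3 at 1 day after sham. Tlr3 had its lowest means in the MCAO groups, at 11.25 at 1 day, 10.69 at 3 days and 11.14 at 7 days. Of the 70 neighbouring pairs in these 10 orders, 63 had array ranges that overlapped and 7 did not. The gaps without overlap included Cd14 between 1-day and 7-day MCAO, and Tlr4 between 1-day MCAO and LPS. Relb was higher in the 7-day than in the 1-day sham arrays without overlap. Since all 1-day surgery arrays are in the upper set and all 7-day arrays in the lower one, day and set cannot be told apart in the Cd14 and Relb gaps. The endothelial marker sum was also higher on the 1-day surgery arrays than in the other groups. It was 1663 to 9687 after MCAO and 2788 to 9632 after sham, against 511 to 1487 elsewhere. The neuron marker sum was 2250 to 7961 and 2607 to 10778 there, against 939 to 4790 elsewhere, with overlap. The part of these cells in the orders was not tested.

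Patterns over the 8 group means were compared by Pearson's r, as a description over 8 points that share arrays with every result above. Among all tested genes outside the 10, Kazn (r = 0.98), Cd109 (0.97) and Cyp1b1 (0.97) had means most like those of Cd14. Those most like Tlr3 were Rgmb (0.98), Rdh11 (0.98) and Tram1l1 (0.97). Among the 10 genes, Myd88 and Bcl3 were the most alike (0.93), followed by Cd14 and Bcl3 (0.91).

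Other genes of the pathway were read from lists by role, with no test between lists. These lists too were made with earlier results of these data known. Of 22 NF-kappaB target genes, 20 were tested, and 12 rose at 1 day after MCAO and 7 after LPS, with none lower in either, where 12.7% and 3.11% of all genes were called. Lcn2, which encodes an iron-carrier-binding secreted protein, had a log2 fold of 7.83 ± 0.69 SE after MCAO (adjusted p = 2.97e-08) and 8.46 ± 0.69 SE after LPS (adjusted p = 1.29e-08). Ptgs2, the inducible prostaglandin synthase, gave 5.12 ± 0.75 SE after MCAO (adjusted p = 3.18e-05). The cytokine Il6 rose at least 15.7-fold after MCAO (adjusted p = 4.55e-06), counted against the floor because its sham mean of 4.52 lies under it. The chemokine Cxcl10 rose in both, by 3.89 ± 0.78 SE after MCAO (adjusted p = 0.00108) and 3.49 ± 0.78 SE after LPS (adjusted p = 0.0104). The adhesion molecule Icam1 and the acute-phase gene Saa3 gave 3.59 ± 0.67 SE and 3.41 ± 0.51 SE after LPS (adjusted p = 0.00207 and 0.000143). Median log2 folds of the targets were 1.65 at 1 day after MCAO and 1.05 after LPS, and 0.49 and 0.60 at 3 and 7 days after MCAO. At 3 days only Lcn2 passed (4.68 ± 0.83 SE, adjusted p = 0.00893), and at 7 days limma called 0 of the 20, of which 9 had an unadjusted p under 0.05, as did 412 of all 15726 genes.

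The lists upstream of NF-kappaB are given next. None of the 13 tested of 17 other Toll-like receptors and accessory proteins was called in any of the 4 comparisons by limma, and their median log2 folds were 0.14, 0.04 and 0.01 at 1, 3 and 7 days after MCAO and 0.15 after LPS. An unadjusted p under 0.05 was reached by 1 of the 13 at 1 day after MCAO, 1 after LPS and 0 at the later days. Over all 15726 genes it was reached by 3669 at 1 day after MCAO and 2572 after LPS. Of 29 adaptors, interleukin-1 receptors and kinases, 22 were tested. At 1 day after MCAO 3 rose and 1 fell, where 12.7% of all genes were called: the interleukin-1 receptor Il1r1 by 1.88 ± 0.36 SE (adjusted p = 0.000717), its partner Il1rap by 1.34 ± 0.34 SE (adjusted p = 0.00730), the MyD88-bridging adaptor Tirap by 1.26 ± 0.21 SE (adjusted p = 0.000165), and the kinase Irak2 at -1.12 ± 0.33 SE (adjusted p = 0.0224). After LPS Il1r1 rose by 2.12 ± 0.36 SE (adjusted p = 0.000784) and the kinase-binding Tab3 by 0.68 ± 0.19 SE (adjusted p = 0.0450).

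Of the 7 NF-kappaB and interferon-regulatory factors tested of 8, Rela, the main activating subunit, rose at 1 day after MCAO (0.78 ± 0.19 SE, adjusted p = 0.00603), and limma called none in the other comparisons, where 2 of 7 at 3 days, 1 of 7 at 7 days and 4 of 7 after LPS had an unadjusted p under 0.05. Of all genes, 6.49% rose at 1 day after MCAO and 2.37% after LPS. An unadjusted p under 0.05 was reached by 1499 of all 15726 genes at 3 days, 412 at 7 days and 2572 after LPS. Of 18 other inhibitors and feedback genes, 16 were tested, and 4 rose at 1 day after MCAO. These were the stress-response repressor Atf3 (1.92 ± 0.55 SE, adjusted p = 0.0190), the inhibitor Nfkbie (1.02 ± 0.34 SE, adjusted p = 0.0467), the ubiquitin ligase Birc3 (0.87 ± 0.28 SE, adjusted p = 0.0410) and the A20-binding Tnip2 (0.77 ± 0.21 SE, adjusted p = 0.0137). Nfkbie (1.56 ± 0.34 SE, adjusted p = 0.00819) and Birc3 (1.19 ± 0.28 SE, adjusted p = 0.0178) also rose after LPS. At 3 and 7 days after MCAO limma called none of the adaptor, factor or inhibitor genes, and those with an unadjusted p under 0.05 numbered 0 of 22, 2 of 7 and 1 of 16 at 3 days and 0 of 22, 1 of 7 and 1 of 16 at 7 days.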

How the data were processed

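Green fluorescent astrocytes from 30 samples were measured on an Affymetrix mouse array after amplification of about 20 ng of RNA, per the labels' protocols. The authors deposited 1 intensity per probe set and array, made with RMA per the submitters' processing notes (version not given in the sources used here), as whole numbers from 9 to 35553 on a linear scale. Background correction and probe summaries are thus the authors', and rounding limits low values. Their log2 was taken here from the deposited intensities. Of 45037 probe sets, 34945 carried 1 gene symbol in the platform table, 932 several and 9160 none. For each of 18193 genes the single-symbol probe set with the highest mean was used, and the tests took in 15726 genes that reached log2 5, or 32 before the log, on 3 or more arrays. All 10 genes described passed, Tlr4 with 2 and Bcl3 with 6 arrays under that floor.

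One model over the 8 groups was fitted with limma 3.58.1 in R 4.3.3, with moderated 2-sided tests (22 residual and 4.55 prior degrees of freedom) and Benjamini-Hochberg adjustment over all genes of a comparison, called at an adjusted p under 0.05. Called genes alone are said to have risen or fallen. Differences between effects are contrasts of the same fit. Other probe sets were fitted together with all 34945, but adjusted p-values of the other Tlr3 probe set come from the fit without shared probe sets. All 10 genes are named in every comparison, up to 4 called genes per pathway list, up to 3 per marker list, and the 3 genes most like Cd14 and Tlr3. The genes and lists were chosen with earlier results of these data known.

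Titles and descriptions number the arrays differently at 1 day. For surgery at 1 day the description numbers were taken to pair 4 MCAO with 4 sham arrays, since the deviations from the group means correlated in each pair (0.23, 0.19, 0.50 and 0.16), and MCAO array 1 has no partner. No other comparison with more than 1 pair had every pair over 0.1. The LPS and saline groups share only 1 description number, with a correlation of 0.31. Alternatives were other normalisations, filters, probe sets, variance models and thresholds, replicate blocks, leaving out each array and, chosen after seeing the data, the sets of arrays and LPS arrays 1 and 5 left out together. For arrays the number of samples, not depth, limits the precision.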

Additional observations from a re-analysis of the deposited data

Results flagged for a closer look

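In 5 of the 40 combinations of gene and group with 4 or 5 arrays, 1 array lay further from its nearest neighbour than Dixon's critical value allows, and chance gives about 1 in 20 such groups. Tlr2 read 12.36 on LPS array 1, where the nearest LPS array read 8.60. Nfkbia read 11.04 on LPS array 5, against 13.11 on the nearest. Tlr3 read 12.43 on saline array 1, against 11.73, and Tlr4 read 4.52 on saline array 2, against 5.78. Tnfaip3 read 8.75 on sham array 3 of 1 day, against 7.69. The causes were not tested.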

How the results depend on the processing

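Of 820 recomputed log2 folds of the 10 genes in the 4 comparisons with a control, 737 kept their direction or stayed uncalled and on the same side of the threshold, 31 lost a call, 52 gained one and 0 called folds changed sign. Of 12 calls, 6 were never lost. At 1 day after MCAO the count of 6 called genes stayed within 1.5 times in every alternative and was 6 to 7 with single arrays left out. The genes could change: with the mean of probe sets the 6 were 6 rises and 0 falls. Tlr3 lost its call there (adjusted p = 0.105) and Nfkbiz gained one (adjusted p = 0.00847). Without shared probe sets the count was 5, and Tlr3 again lost its call. With the description numbers as a replicate block the count was 8, where 27.5% of all genes passed in place of 12.7%, and with the title numbers as a block it was 7. With the 2 groups fitted on their own, without pairs, it was also 8 (32.9% of all genes).

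At 3 days after MCAO the count of 1 became 9 with array weights, 5 in the lower set alone, 4 with the description numbers as a replicate block, 2 with quantile normalisation and 2 with a filter of log2 6, while the share of all genes called was 12.3%, 5.51%, 5.49%, 0.929% and 0.887% in place of 0.674%. It became 0 without shared probe sets, with robust trended variances, with the 2 groups fitted alone, with the title numbers as a block, at an adjusted p under 0.01 and in the upper set alone, which holds 1 array a group there. Titles and descriptions number the 3-day arrays alike, so both blocks pair these arrays in the same way. The counts of 4 and 0 differ because the 1-day arrays enter the shared variance differently in the 2 fits. Single arrays left out gave 0 to 3. At 7 days the count of 0 became 6 with array weights (3.34% of all genes called, in place of 0.0254%), 5 with the groups fitted alone (1.3%), and 1 each with quantile normalisation, a filter of log2 6, robust trended variances and the set as a covariate (0.0897% to 0.108%), and stayed 0 to 0 with single arrays left out. After LPS the count of 5 became 1 with the groups fitted alone (0.413% of all genes, in place of 3.11%), 1 in the lower set alone (0.744%) and 3 without LPS arrays 1 and 5 (1.86%), and 4 to 5 with single arrays left out.

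For the MCAO effect minus the LPS effect the count of 0 became 3 with array weights (13.5% of all genes, in place of 1.39%), 1 with the title numbers as a block (2.05%) and 1 with the set as a covariate (2.52%), and 0 to 1 with single arrays left out. For 3 days minus 1 day it became 2 with array weights (1.65% of all genes, in place of 0.00636%). For 7 days minus 1 day it became 6 with array weights (20% of all genes, in place of 0.356%), 4 with the groups fitted alone (9.77%), 2 with the description numbers (3.75%) and 1 with the title numbers as a replicate block (0.502%), with 0 to 0 for single arrays left out in both. Array weights and fits on the groups alone also raised the share of all genes called, to 39.2% and 32.9% at 1 day after MCAO. The description numbers give no block for LPS, where the groups share only 1 number. In that fit no LPS or saline array therefore enters the shared variance. The cause of the larger shares was not tested.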
